A study of Rattus norvegicus with 8 samples.

Results

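A set of 6 genes of thiol, glutathione and NADPH redox chemistry were followed in cells of the rat nucleus pulposus, the soft centre of the intervertebral disc. They were taken by symbol from the deposited expression table, which gave 6 of its 4226 genes: Txnrd1, Msrb3, Gpx2, Gsta2, Tkt and Osgin1. All cells had been depleted of SOD1, the copper-zinc superoxide dismutase of the cytosol, by knockdown. They were then transfected with SOD1, either wild-type (SOD1-WT, 4 libraries) or carrying the K123R substitution of lysine by arginine (SOD1-K123R, 4 libraries). All 8 libraries carry the treatment label lactate, given by the series design as 10 mM for 7 days, so no library without lactate or without re-expressed SOD1 was compared. The sources used here do not give the strain, age or number of animals, the vector, or whether replicates were separate cultures, so the p-values cover the spread between these libraries, which may be technical. In the table, SOD1-K123R columns are headed L and SOD1-WT columns Ctrl, and the labels do not explain the L. Sod1 itself was not analysed here, so a difference in the level of SOD1 and the substitution cannot be told apart.

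Cells keep their protein thiols reduced with electrons from NADPH, which flow through thioredoxin reductase to thioredoxin and through glutathione reductase to glutathione. Thioredoxin serves peroxiredoxins and methionine sulfoxide reductases, whereas glutathione serves glutathione peroxidases, which remove peroxides, and glutathione transferases, which attach glutathione to reactive compounds. NADPH comes largely from the pentose phosphate pathway, and many genes of these systems are switched on by the transcription factor NRF2 through antioxidant response elements. Superoxide dismutase turns superoxide into hydrogen peroxide, the substrate that several of these enzymes remove. The nucleus pulposus has no blood vessels, and its cells live with little oxygen and much lactate.

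The values were TPM, a measure of transcript abundance within a library, which are scaled for transcript length and so can be set against each other between genes. The table held part of the transcriptome: its rows summed to 18.8% to 19.9% of a full TPM total in SOD1-WT and 23.5% to 24.3% in SOD1-K123R, and sequencing depth is unknown. Genes close to a fold of 1 were scarce, with 8.44% of the 2890 tested genes at an absolute log2 fold change under 0.5. The tissue label could be checked only in part, since 7 of 16 nucleus pulposus names were in the table. Of 6 tested, 3 rose (Cd24 from 10.1 ± 1.43 to 31.2 ± 6.44 TPM, Sox9 and Car12) and 3 fell (Cdh2 from 9.43 ± 0.432 to 2.96 ± 0.451 TPM, Car3 and Acan). Col2a1, the cartilage collagen gene, was near absent in both groups, at 0 in every SOD1-WT library and 0.02 to 0.08 TPM in SOD1-K123R. Acan, the main proteoglycan, fell from 1.545 ± 0.419 to 0.645 ± 0.0998 TPM (SD, n = 4 each, as for all means that follow). Markers of other cell types also moved with the groups, as did nearly all of the table. Of all tested genes 95.7% had a limma adjusted p under 0.05, and 91.4% had groups that did not overlap. A marker that moved is therefore no more than most genes here show. Of 9 macrophage and leukocyte names 2 were in the table, with summed levels of 5.44 to 8.04 TPM in SOD1-WT and 23.4 to 30.9 TPM in SOD1-K123R, and Lyz2 was listed at 0 in 3 of the SOD1-WT libraries. Of the annulus and tendon markers 2 of 6 names were in the table and both fell, with summed levels of 34.6 to 55.2 TPM in SOD1-WT and 17.0 to 21.7 TPM in SOD1-K123R. Thbs4, 1 of them, did not pass under median-of-ratios scaling (-0.18, limma adjusted p = 0.331). Among bone genes, Runx2 rose from 4.52 ± 1.03 to 13.3 ± 2.23 TPM and Ibsp fell from 9.22 ± 1.82 to 1.54 ± 0.509 TPM. The epithelial Cldn4 (0.383 ± 0.176 to 2.035 ± 0.825 TPM) rose, and the adipocyte Fabp4 passed as higher with groups that overlapped (6.34 to 14.2 TPM and 10.8 to 16.4 TPM) and did not pass with equal sums (limma adjusted p = 0.2999). Endothelial markers summed to 0.67 TPM at most, and erythroid markers were not analysed here. Sox9, Car12, Acan, Car3 and Cldn4 passed the filter of a mean of 1 TPM through 1 group alone, so they had to differ. The part of such cells in the results that follow was not tested.

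The promoter windows of 3 redox genes held the core of an antioxidant response element and are shown because these genes moved in different directions. Windows run from 250 bases before to 50 after a RefSeq gene start in the GRCr8 assembly, and all 6 genes matched by symbol, Txnrd1 with 2 starts. Both strands were searched for TGACNNNGC, the element's core, and for TGANTCA, the site of AP-1 factors, which can overlap it. At least 1 core was found in 3 of the 7 windows and in 12.1% of all 33469 windows of this length. The AP-1 site was found in 0 of the 7 windows and in 7.33% of all windows. Capitals mark the core, which lies on the strand opposite to the one printed and so reads GCNNNGTCA.
Txnrd1 (chr7:22755855-22756154, minus strand): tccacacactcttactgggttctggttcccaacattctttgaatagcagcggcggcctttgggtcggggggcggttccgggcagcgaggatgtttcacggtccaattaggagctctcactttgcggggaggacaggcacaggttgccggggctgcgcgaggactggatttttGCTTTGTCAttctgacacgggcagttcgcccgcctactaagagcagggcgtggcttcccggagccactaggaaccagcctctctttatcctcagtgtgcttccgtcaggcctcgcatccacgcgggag
Gpx2 (chr6:101229984-101230283, minus strand): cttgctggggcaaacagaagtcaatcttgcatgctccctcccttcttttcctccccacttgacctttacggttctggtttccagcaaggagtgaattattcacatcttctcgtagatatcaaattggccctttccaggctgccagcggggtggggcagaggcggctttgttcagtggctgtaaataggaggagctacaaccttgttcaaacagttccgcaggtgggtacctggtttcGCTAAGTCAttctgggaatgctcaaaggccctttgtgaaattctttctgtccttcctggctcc
Gsta2 (chr8:88077043-88077342, minus strand): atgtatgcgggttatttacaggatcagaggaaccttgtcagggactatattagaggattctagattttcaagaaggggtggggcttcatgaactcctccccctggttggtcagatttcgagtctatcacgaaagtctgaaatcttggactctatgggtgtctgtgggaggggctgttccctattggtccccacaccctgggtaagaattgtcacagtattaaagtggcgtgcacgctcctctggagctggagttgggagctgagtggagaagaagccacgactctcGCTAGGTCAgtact
Read on its own strand, the core was TGACAAAGC in Txnrd1, TGACTTAGC in Gpx2 and TGACCTAGC in Gsta2. In Txnrd1 the match began 78 bases and in Gpx2 13 bases before the annotated start, and in Gsta2 it began at base 37 of the transcribed part. A match is a description of these letters and not evidence of binding.

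Txnrd1 and Tkt were higher in SOD1-K123R, Gsta2, Msrb3 and Gpx2 were lower, and Osgin1 did not pass the test. The changes ranged from a 23.8-fold lower mean TPM of Gsta2 to a 3.00-fold higher mean TPM of Tkt. Thus 5 of the 6 genes passed (2 higher and 3 lower) in limma, a linear model over all tested genes, at a Benjamini-Hochberg adjusted p under 0.05. The background is high: 95.7% of tested genes passed (44.6% higher and 51.1% lower), so 5 of 6 is a share like that of the rest of the table. The groups did not overlap for the same 5 genes, against 91.4% of tested genes. The median log2 fold change of the 6 was -0.23, and that of all tested genes was -0.49. The latter was 0.27 with a mean of at least 5 TPM required, a filter that leaves out Gpx2 and Osgin1. In bulk RNA, fewer cells of a type and less RNA per cell cannot be told apart.

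**Figure D1:**
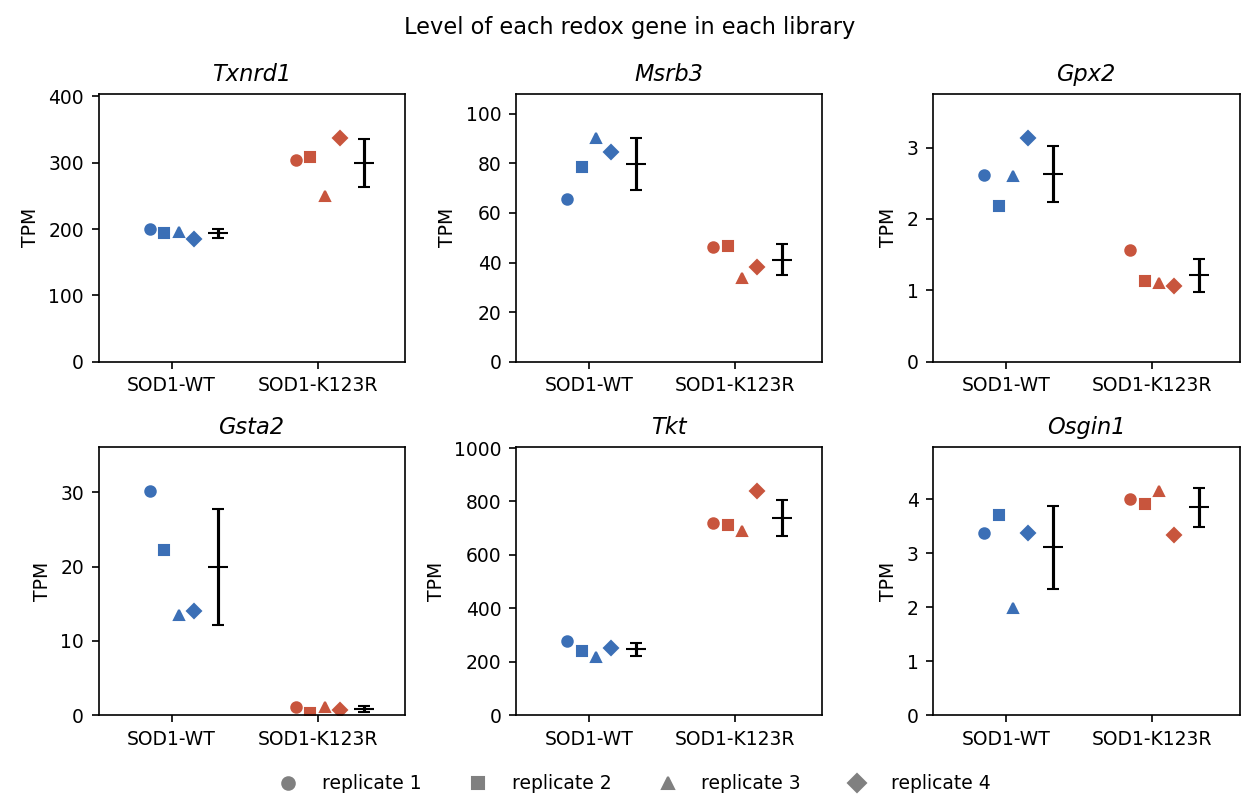
TPM of each of the 6 redox genes (vertical axes, from 0) in each library of SOD1-WT (blue) and SOD1-K123R (red); symbols give the replicate number, and bars give the mean ± SD of 4 libraries. Tkt and Txnrd1 are higher and Msrb3, Gpx2 and Gsta2 lower in every SOD1-K123R library, while the Osgin1 values overlap.

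Txnrd1 encodes cytosolic thioredoxin reductase, the selenoenzyme that passes electrons from NADPH to thioredoxin. It read 199, 194, 196 and 185 TPM in SOD1-WT replicates 1 to 4, and 304, 308, 250.4 and 337 TPM in SOD1-K123R replicates 1 to 4. Replicate 3 was the lowest of the SOD1-K123R libraries, and still lay above all SOD1-WT libraries. The mean went from 193 ± 6.23 to 299.8 ± 36.0 TPM, a log2 fold change of 0.62 (SE 0.09, limma adjusted p = 3.04e-05). Of the tested genes 1120 had a higher log2 fold change, so the rise of Txnrd1 was modest for this table. The SD grew from 3.22% to 12.0% of the mean.

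Msrb3 encodes a methionine sulfoxide reductase, of a class that repairs oxidised methionine in proteins and commonly draws electrons from thioredoxin. Its level was 65.6, 78.7, 90.1 and 84.7 TPM in the SOD1-WT libraries and 46.2, 46.5, 33.9 and 38.3 TPM in the SOD1-K123R libraries. The lowest SOD1-WT library lay above the highest SOD1-K123R library. Msrb3 fell from 79.8 ± 10.5 to 41.2 ± 6.19 TPM, a log2 fold change of -0.94 (SE 0.12, limma adjusted p = 1.10e-05). Txnrd1 rose and Msrb3 fell, and whether their proteins act on the same thioredoxin in these cells was not tested. With these opposite changes, the ratio of Txnrd1 to Msrb3 TPM within a library went from 2.17 to 3.04 in SOD1-WT to 6.59 to 8.79 in SOD1-K123R. Multiplying a library by a single factor leaves such a ratio as it is, which quantile normalization does not.

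Gpx2 encodes a glutathione peroxidase best known from the gut lining, a selenoenzyme like Txnrd1. Its level was low, at 2.61, 2.18, 2.60 and 3.13 TPM in SOD1-WT and 1.56, 1.13, 1.11 and 1.06 TPM in SOD1-K123R. SOD1-K123R replicate 1 stood above the other 3 of its group and below every SOD1-WT library. Gpx2 fell from 2.63 ± 0.389 to 1.215 ± 0.232 TPM, a log2 fold change of -0.71 (SE 0.13, limma adjusted p = 0.000137). Adding 1 TPM before taking logarithms compresses a change at this level: with 0.1 TPM added the log2 fold change was -1.06.

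Gsta2 encodes an alpha-class glutathione transferase, abundant in liver, that conjugates electrophiles and also reduces lipid hydroperoxides. It read 30.1, 22.2, 13.5 and 14.0 TPM in the SOD1-WT libraries, and 1.15, 0.300, 1.15 and 0.750 TPM in the SOD1-K123R libraries. SOD1-WT replicates 1 and 2 were higher than replicates 3 and 4, and all 4 were far above SOD1-K123R. The mean fell from 19.95 ± 7.87 to 0.838 ± 0.405 TPM, a log2 fold change of -3.47 (SE 0.24, limma adjusted p = 4.34e-08), and 5 of the 2890 tested genes had a lower value. Gsta2 varied most within a group, with an SD of 39.4% of the mean in SOD1-WT and 48.3% in SOD1-K123R. It passed the filter of a mean of 1 TPM through its SOD1-WT level alone, so a difference in this direction was bound to be seen. RefSeq links Gsta1 and Gsta5 with Gsta2 through its lists of other names, and whether they are separate genes was not settled here. The TPM of Gsta2 are uncertain where reads were shared with near-identical copies.

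Tkt encodes transketolase, the thiamine-dependent enzyme that rearranges sugars in the non-oxidative branch of the pentose phosphate pathway. It was the most abundant of the 6 genes, at 277, 239, 216 and 252 TPM in SOD1-WT and 719, 711, 689 and 837 TPM in SOD1-K123R. Replicate 4 was the highest SOD1-K123R library, and the lowest of that group was still far above SOD1-WT. Tkt rose from 246 ± 25.4 to 739 ± 66.8 TPM, a log2 fold change of 1.58 (SE 0.10, limma adjusted p = 1.23e-08). It rose more than its partner in the branch, Taldo1, which encodes transaldolase. The ratio of Tkt to Taldo1 TPM lay between 0.715 and 0.825 in SOD1-WT and between 1.56 and 1.74 in SOD1-K123R, so that Tkt passed from the lower to the higher of the pair in every library.

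Osgin1 encodes an oxidative stress-induced inhibitor of growth and is a known NRF2 target. It read 3.38, 3.70, 1.98 and 3.38 TPM in SOD1-WT, and 4.01, 3.90, 4.14 and 3.33 TPM in SOD1-K123R. The groups overlapped, since SOD1-K123R replicate 4 lay below 3 of the SOD1-WT libraries, and SOD1-WT replicate 3 was the lowest of all. The mean was 3.11 ± 0.768 TPM in SOD1-WT and 3.845 ± 0.357 TPM in SOD1-K123R, a log2 fold change of 0.26 (SE 0.15, 95% interval -0.08 to 0.59, limma adjusted p = 0.122). Without SOD1-WT replicate 3 the log2 fold change was 0.11 (limma adjusted p = 0.407). The interval holds both no change and a rise close to that of Txnrd1.

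An exact permutation test of mean TPM (two-sided, over the 70 ways of dividing 8 libraries) gave p = 0.0286 for each of Txnrd1, Msrb3, Gpx2, Gsta2 and Tkt, the smallest value this design allows. For Osgin1 the exact permutation p was 0.114. Any gene whose groups do not overlap must give the smallest value in this test, and 91.4% of tested genes did not overlap. That value therefore adds nothing to the lack of overlap given above.

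**Figure D2:**
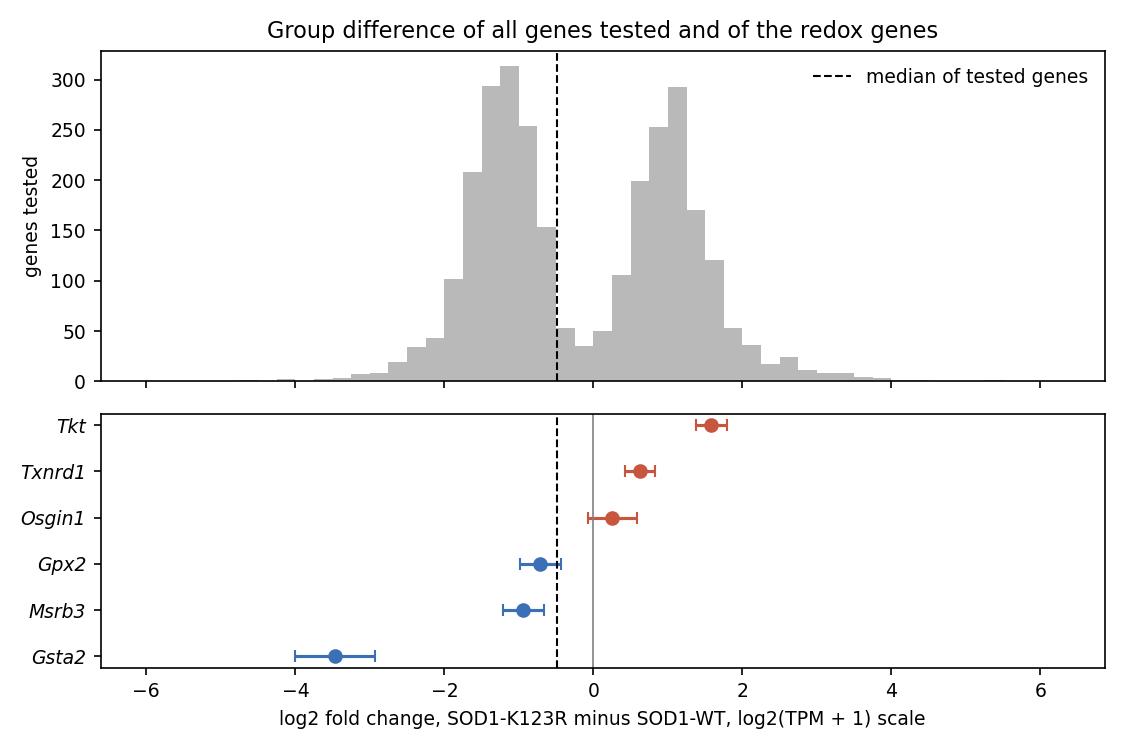
Top, number of tested genes by log2 fold change (SOD1-K123R minus SOD1-WT, on the log2(TPM + 1) scale), with the median of -0.49 dashed; bottom, the 6 redox genes with 95% intervals from limma. Tested genes form 2 humps with few near 0; Osgin1 lies between the humps with an interval that includes 0, and Gsta2 at -3.47 lies at the far low end.

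The order of the levels changed at its lower end. In SOD1-WT it ran Tkt, Txnrd1, Msrb3, Gsta2, Osgin1 and Gpx2, and only the last pair overlapped between neighbours. In SOD1-K123R it ran Tkt, Txnrd1, Msrb3, Osgin1, Gpx2 and Gsta2, and again only the last pair overlapped. Gsta2 thus went from the fourth place to the last. Tkt and Txnrd1 drew apart, with a ratio of Tkt to Txnrd1 TPM of 1.10 to 1.39 in SOD1-WT and 2.31 to 2.75 in SOD1-K123R.

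**Figure D3:**
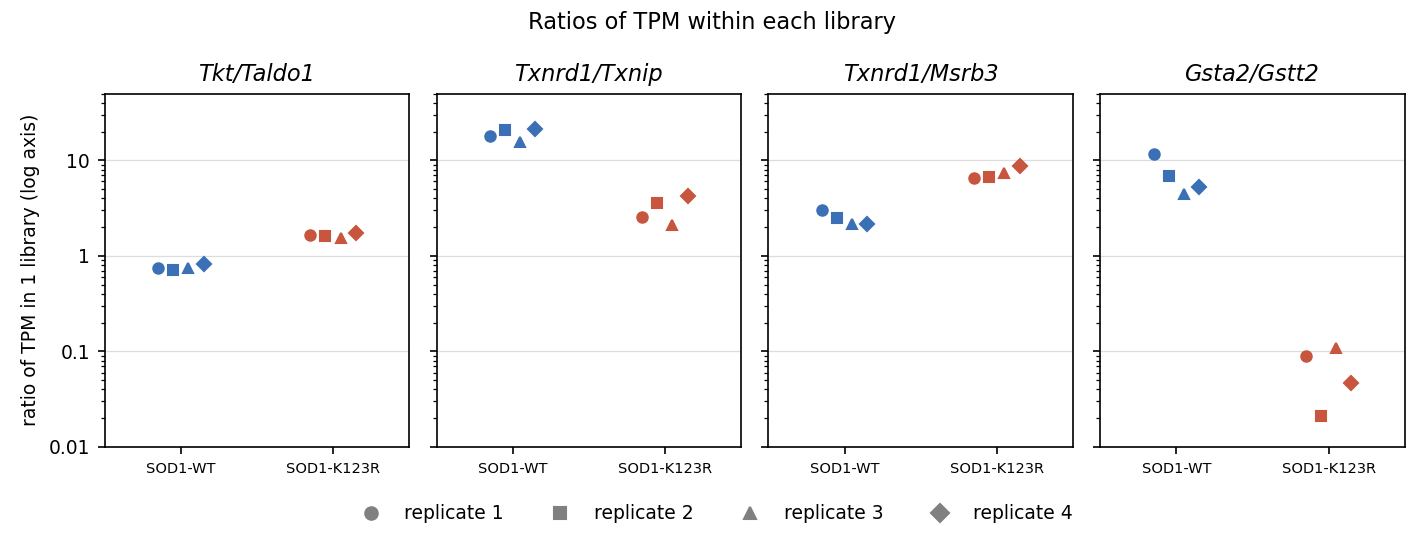
Ratio of the TPM of 2 genes in the same library (log axis) for SOD1-WT (blue) and SOD1-K123R (red), with symbols for the replicate number. The groups do not overlap in any of the 4 ratios. Tkt to Taldo1 and Txnrd1 to Msrb3 are higher in SOD1-K123R, and Txnrd1 to Txnip and Gsta2 to Gstt2 lower. Txnrd1 to Msrb3 and Gsta2 to Gstt2 each set a gene that rose against a gene that fell, so these had to separate. Gsta2 passed the filter of a mean of 1 TPM through SOD1-WT alone.

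The size of these differences depended on how libraries were scaled. Median-of-ratios scaling over the rows of the table moved the median log2 fold change of tested genes by 0.35, quantile normalization moved it by 0.23, and setting equal sums moved it by -0.22. Txnrd1 had a log2 fold change of 1.10, 0.44 and 0.31 under these 3 settings. Msrb3 had -0.46, -1.09 and -1.25, and Gpx2 had -0.40, -0.45 and -0.91. Tkt (2.06, 1.14 and 1.27) and Gsta2 (-3.10, -3.35 and -3.69) changed less in proportion. The 5 calls and directions held under each setting. Which setting is right cannot be told, since 8.44% of tested genes had an absolute log2 fold change under 0.5. Osgin1 passed under median-of-ratios scaling (0.62 on the log2 scale, limma adjusted p = 0.00310) and quantile normalization (0.59, limma adjusted p = 0.00412), but not with equal sums (0.01, limma adjusted p = 0.947). Relative to the median of all genes tested at a mean of 1 TPM or more, the values varied less between scalings. Over the deposited TPM and the 3 scalings, Osgin1 lay 0.72 to 0.85 above that median, Txnrd1 lay 0.71 to 1.25 above it and Tkt 1.40 to 2.21 above it. On that relative scale Gpx2 had values of -0.26 to -0.19, Msrb3 of -0.83 to -0.32 and Gsta2 of -3.09 to -2.95. All these distances rest on the filter. From the deposited TPM, the median of tested genes was -0.49 with a mean of at least 1 TPM and 0.27 with a mean of at least 5 TPM.

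**Figure D4:**
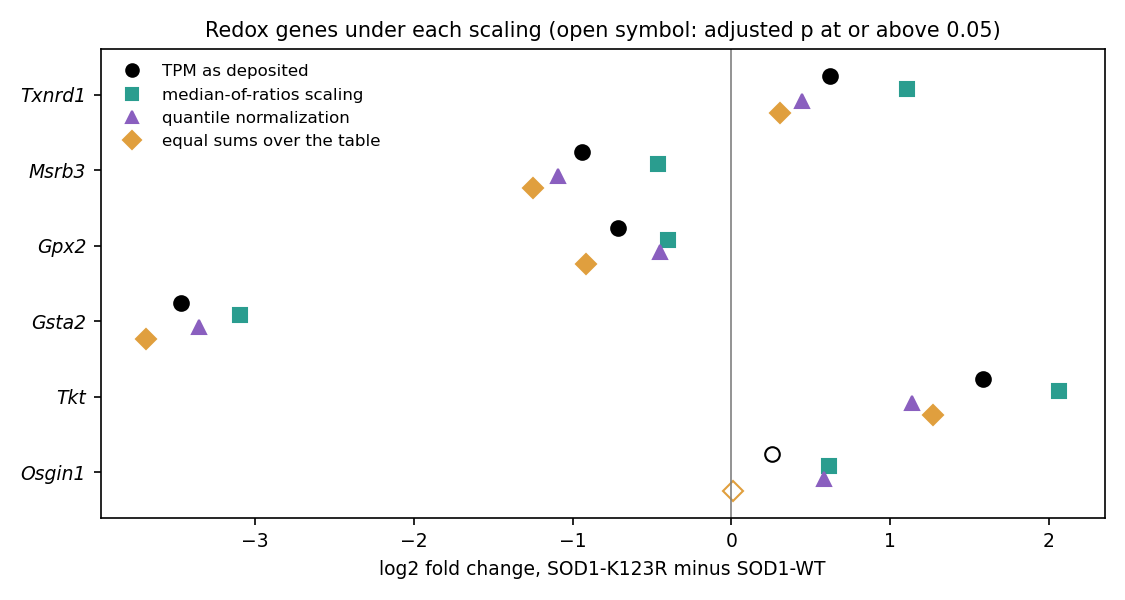
Log2 fold change (SOD1-K123R minus SOD1-WT) of the 6 redox genes from TPM as deposited and after 3 other scalings; open symbols mark limma adjusted p at or above 0.05. Every gene but Osgin1 keeps its side of 0 and its call, and Osgin1 is open at 0.26 and 0.01 and filled at 0.62 and 0.59.

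The thioredoxin system around Txnrd1 and Msrb3 was thinly represented. Of 36 names of thioredoxins, their reductases, glutaredoxins and peroxiredoxins 3 were in the table and tested, Txnrd1 among them. All 3 were higher, where 44.6% of all tested genes were called higher and 95.7% were called in either direction. Whether the system rose as a whole was not tested. Txnip, which binds thioredoxin and blocks it, read 11.0, 9.35, 12.6 and 8.59 TPM in SOD1-WT and 119.9, 85.7, 118 and 79.9 TPM in SOD1-K123R, with no overlap (log2 fold change 3.15, SE 0.15, limma adjusted p = 2.33e-09). Sesn2, a stress-induced sestrin, rose from 14.6 ± 0.835 to 37.8 ± 2.77 TPM. Txnip rose far more than Txnrd1: the ratio of Txnrd1 to Txnip TPM was 15.6 to 21.5 in SOD1-WT and 2.12 to 4.21 in SOD1-K123R. Msrb3 was the 1 of 4 methionine sulfoxide reductases in the table.

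Genes of glutathione handling gave no common direction. Their counts stand beside 44.6% of all tested genes called higher and 51.1% called lower. Of 27 names for its synthesis, breakdown, recycling and peroxidases 3 were tested, 2 of them lower. These were Gpx2 and Chac2, an enzyme that breaks down glutathione (7.595 ± 0.967 to 2.29 ± 0.917 TPM). Ggt1, which cleaves glutathione outside cells, did not pass (17.1 ± 1.32 and 16.4 ± 2.00 TPM), and its log2 fold change of -0.06 turned with the scaling. It passed as higher under median-of-ratios scaling (0.40, limma adjusted p = 0.0267) and as lower with equal sums (-0.36, limma adjusted p = 0.00983), where 3 genes of the list were lower. Among glutathione transferases 4 of 31 names were tested, 2 higher and 2 lower. With Gsta2 the microsomal Mgst3 fell (3.26 ± 0.615 to 0.953 ± 0.490 TPM), whereas Gstt2, a theta-class enzyme, rose from 2.865 ± 0.311 to 13.5 ± 2.32 TPM. Mgst3, like Gsta2, passed the filter through SOD1-WT alone, so both genes of this list that fell had to differ. The ratio of Gsta2 to Gstt2 TPM was 4.44 to 11.7 in SOD1-WT and 0.0213 to 0.108 in SOD1-K123R. Gstk1, a mitochondrial and peroxisomal transferase, rose by a log2 fold change of 0.40, a call that ended with equal sums (limma adjusted p = 0.454).

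Tkt belonged to a list for the pentose phosphate pathway and NADPH supply in which 3 of 7 tested genes (of 32 names) were higher and 4 lower, with a median log2 fold change of -0.90. For comparison, 44.6% of all tested genes were called higher and 51.1% lower. Those that rose were Tkt, Taldo1 (325 ± 35.4 to 451 ± 20.9 TPM) and Shpk, a kinase that makes sedoheptulose 7-phosphate (1.51 ± 0.357 to 3.23 ± 0.640 TPM). The call for Taldo1 ended after quantile normalization (log2 fold change 0.07, limma adjusted p = 0.481) and with equal sums (0.16, limma adjusted p = 0.127). The 4 that fell included 2 folate enzymes that yield NADPH, Aldh1l2 (43.1 ± 8.67 to 10.7 ± 1.19 TPM) and Mthfd1 (28.5 ± 1.14 to 10.7 ± 1.51 TPM). Tigar, a phosphatase that steers glucose towards the pentose phosphate pathway, fell by 1.59 on the log2 scale, and Prps2, which uses the pathway's ribose 5-phosphate, fell by 0.90.

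Txnrd1, Tkt, Gpx2, Gsta2 and Osgin1 were on the list of NRF2 targets, of which 12 of 49 names were tested. In this list 8 were higher, 3 lower and 1, Osgin1, did not pass, with a median log2 fold change of 0.48. With equal sums 5 were higher and 3 lower. Among the 8, Ephx1, an epoxide hydrolase (0.985 ± 0.314 and 1.51 ± 0.335 TPM), passed the filter of a mean of 1 TPM through SOD1-K123R alone. The filter thus favoured a rise of this gene. Its call was lost without any 1 of SOD1-WT replicates 2, 3 and 4 or SOD1-K123R replicates 3 and 4. It was also lost with equal sums (limma adjusted p = 0.287). Hmox1, which degrades heme, read 98.3, 81.1, 89.0 and 94.8 TPM in SOD1-WT and 635, 623, 574 and 581 TPM in SOD1-K123R, and Ftl1, the ferritin light chain, had a log2 fold change of 1.80. Gsta2 and Gpx2 fell beside these, and so did Blvra, the biliverdin reductase that acts after heme oxygenase (25.9 ± 2.33 to 7.28 ± 0.989 TPM). All 5 tested genes of NRF2 and its regulators (of 16 names) were higher, also under each of the 3 scalings, in a table where 44.6% of tested genes were called higher and 95.7% were called in either direction. Nfe2l2, which encodes NRF2, read 53.8, 71.2, 87.0 and 67.4 TPM in SOD1-WT and 139.8, 139.1, 129 and 90.5 TPM in SOD1-K123R. SOD1-K123R replicate 4 lay just above the highest SOD1-WT library, and the log2 fold change was 0.83 (SE 0.16, limma adjusted p = 0.000271). Maff, a small MAF partner of NRF2, rose by a log2 fold change of 1.19, Gsk3b, a kinase that promotes loss of NRF2, by 1.00 and Sqstm1, which sequesters the NRF2 inhibitor KEAP1, by 0.90.

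Txnrd1 and Gpx2 share selenocysteine, an amino acid inserted by dedicated machinery. Of 7 tested genes for selenoproteins and this machinery (of 33 names) 2 were higher, 4 were lower and 1 did not pass. In the table as a whole 44.6% of tested genes were called higher and 51.1% lower. Trit1, which modifies transfer RNAs including that for selenocysteine, rose (5.395 ± 0.806 to 13.2 ± 0.791 TPM). Sephs2, which makes the selenium donor, fell from 22.2 ± 0.366 to 10.4 ± 2.46 TPM, and its relative Sephs1 from 12.1 ± 0.979 to 5.90 ± 0.396 TPM. Dio2, a thyroid hormone deiodinase, fell by 2.04 on the log2 scale, and Selenok did not pass (log2 fold change 0.10), but passed as higher under median-of-ratios scaling (0.56, limma adjusted p = 0.00133). Dio2 (0.205 ± 0.132 TPM in SOD1-K123R) passed the filter through SOD1-WT alone, so it had to differ. Among sources of superoxide and peroxide 3 of 25 names were tested. Xdh, xanthine dehydrogenase, fell from 56.2 ± 2.38 to 19.0 ± 1.89 TPM. Maob, monoamine oxidase B, fell by 0.69 on the log2 scale, a call that ended under median-of-ratios scaling (-0.27 on that scale, limma adjusted p = 0.165). Smox, spermine oxidase, rose by a log2 fold change of 0.27 (limma adjusted p = 0.0258), a call that ended after quantile normalization (limma adjusted p = 0.0892), with equal sums, and without any 1 of SOD1-WT replicates 3 and 4 and SOD1-K123R replicates 1 and 2. None of 10 names for removal of superoxide and peroxide outside the thiol systems was among the genes analysed here.

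Over the 10 lists together, 20 of 38 tested genes were higher, 15 lower and 3 did not pass, where 44.6% of all tested genes were higher and 51.1% lower. The median log2 fold change was 0.31 over the lists and -0.49 over all tested genes. The rows of the table are an unexplained part of the transcriptome, so the counts describe the tested names alone.

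**Figure D5:**
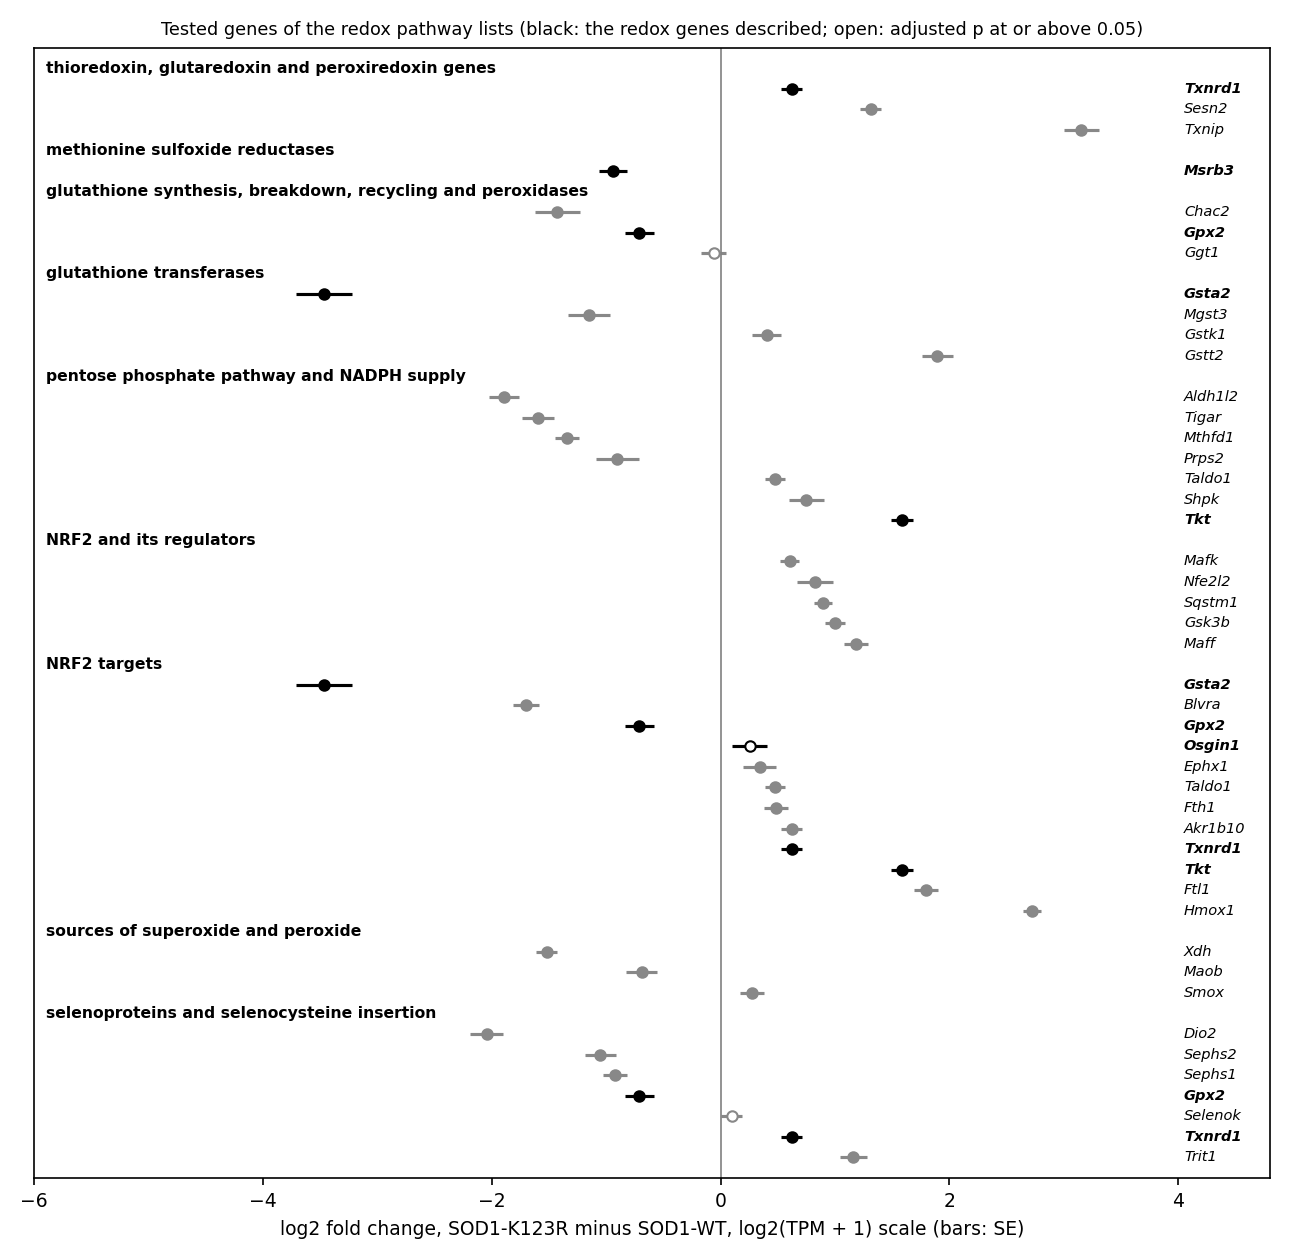
Log2 fold change (horizontal axis, SOD1-K123R minus SOD1-WT, bars SE) of each tested gene of the redox lists; black marks the 6 redox genes, grey the others, and open circles limma adjusted p at or above 0.05. All NRF2 regulators lie above 0, while the glutathione transferases and the pentose phosphate and NADPH list lie on both sides.

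Genes with the most similar pattern were sought among 1772 genes that had a symbol other than a locus name, were not among the 6, and had a mean of 5 TPM or more. Likeness was the root-mean-square difference of log2(TPM + 1) over the 8 libraries, after each gene was centred on its own mean, so that it mostly reflects the group difference that nearly all genes share. Nearest to Txnrd1 were Bsdc1 (difference 0.0738), Cog6 and Pxdc1, and nearest to Tkt were Rgs16 (0.0661), Plcd3 and Zbtb7c. Msrb3 lay closest to Man2a1 (0.0506), Man1a2 and Dhx29, the first 2 being mannosidases of glycoprotein processing in the Golgi. For Gpx2 they were Tubgcp2 (0.106), Uhrf1 and Slc35f6, and for Osgin1 they were Alas1 (0.146), Tamalin and Smox. Gsta2 had no close match: its nearest genes were Krtap11-1 (0.382), Bmp2 (0.386) and Chsy3 (0.426), which shared its large fall but not the spread of its SOD1-WT libraries.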

How the data were processed

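RNA-seq of 8 libraries was analysed, grouped by title into SOD1-WT and SOD1-K123R (4 each). The authors deposited 1 table of gene-level TPM, whose name gives RSEM as the source. DESeq2 is named without a role, per the submitters' processing notes. Aligner, genome build and annotation: not given in the sources used here. Depth is not recoverable from TPM, so no counting interval was set.

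Genes whose mean reached 1 TPM (2890; 1336 lay below) were fitted as log2(TPM + 1), SOD1-K123R minus SOD1-WT, with limma 3.58.1 in R 4.3.3 (eBayes with a mean-variance trend, two-sided, Benjamini-Hochberg over all tested genes). The fit was tested on simulated data in which most genes did not change. That setting is unlike these data, so it says nothing about the choice of scaling. A few genes are not reported here. List names were matched by exact symbol. The 6 genes, the lists and the tests were chosen with earlier results of these data known. Text names the 6 genes, the 3 other genes of smallest adjusted p per list, list genes named for their role, and the 3 most similar genes. Alternatives were pseudocount, filter, scaling, trend, replicate block and leaving out each library. Library identifiers form 1 unbroken run per group, so handling and group cannot be told apart.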

Additional observations from a re-analysis of the deposited data

Results flagged for a closer look

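In these cases 1 library lay apart from the other 3 of its group by a Dixon test, which chance alone would meet in about 1 of 20 groups of values; of 136 such groups examined 7 met it, close to the number chance gives. Gpx2 stood at 1.56 TPM in SOD1-K123R replicate 1, where the others lay at 1.06 to 1.13 TPM. Taldo1 stood at 482 TPM in SOD1-K123R replicate 4 (others 439.6 to 443 TPM). Aldh1l2 was apart in both groups, at 56.0 TPM in SOD1-WT replicate 4 (others 37.9 to 39.9 TPM) and at 12.5 TPM in SOD1-K123R replicate 3 (others 10.0 to 10.3 TPM). Trit1 read 12.0 TPM in SOD1-K123R replicate 3 (others 13.5 to 13.7 TPM). Plcd3, one of the genes most like Tkt, read 22.4 TPM in SOD1-K123R replicate 4 (others 17.4 to 18.2 TPM). Car3, a nucleus pulposus marker, read 7.48 TPM in SOD1-WT replicate 2 (others 4.38 to 4.78 TPM).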

How the results depend on the processing

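The directions and calls of Txnrd1, Msrb3, Gpx2, Gsta2 and Tkt held in each alternative that gave a value. With a mean of at least 5 TPM required, Gpx2 and Osgin1 were not tested, and 948 genes were higher and 897 lower, against 1289 and 1476 (fewer genes were tested). Median-of-ratios scaling gave 1363 higher and 1353 lower. Osgin1 passed under median-of-ratios scaling (0.62) and quantile normalization (0.59); the cause was not tested. Leaving out 1 library gave log2 fold changes of 0.56 to 0.71 for Txnrd1, -1.03 to -0.85 for Msrb3, -0.78 to -0.65 for Gpx2, -3.62 to -3.25 for Gsta2, 1.52 to 1.64 for Tkt and 0.11 to 0.33 for Osgin1, with no change of call. Signs turned for 3 list genes that lie near 0: Ggt1 (0.40 under median-of-ratios scaling, 0.049 after quantile normalization, and from -0.116 without SOD1-K123R replicate 3 to 0.017 without SOD1-K123R replicate 2), Selenok (-0.21 with equal sums) and Smox (-0.034 with equal sums). Of 32 other list genes 23 kept call and sign in each alternative, which for these genes was chosen after the data had been seen. Same-numbered libraries did not pair: deviations from the group means correlated by -0.35, 0.016, -0.204 and 0.0536 for replicates 1 to 4 (across genes), and only SOD1-WT replicate 4 was most like its own number. With a replicate block 1282 genes were higher and 1461 lower, and the adjusted p (limma) was 0.000303 for Txnrd1, 0.000246 for Msrb3, 0.00117 for Gpx2, 2.73e-06 for Gsta2, 1.33e-06 for Tkt, 0.167 for Osgin1 and 0.0686 for Ephx1, with 7 NRF2 targets higher against 8.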

Other observations

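Annotation in the deposited table gave other groups that include redox genes described above. These groups were chosen after the table had been seen. Their counts stand against 44.6% of all tested genes called higher and 51.1% called lower. Of 9 tested genes of the GO term response to oxidative stress 3 were higher and 6 lower in SOD1-K123R, with Msrb3 and Gpx2 among those that fell. Besides Hmox1, Lcn2, an iron-siderophore carrier (295 ± 27.6 to 549.5 ± 17.9 TPM), and Btg1, an antiproliferative gene (184 ± 5.56 to 337 ± 22.5 TPM), rose, and Pcna, the replication clamp (140.1 ± 22.4 to 70.8 ± 5.38 TPM), Psip1 and Stc2 were among those that fell. In the GO term cell redox homeostasis 5 of 7 tested genes were higher and 2 lower. With Txnrd1 rose P4hb, a protein disulfide isomerase of the endoplasmic reticulum (1937 ± 95.6 to 3394 ± 156 TPM). The sulfhydryl oxidases moved apart: Qsox1 rose from 49.9 ± 5.42 to 80.4 ± 4.91 TPM and Qsox2 fell from 19.0 ± 1.28 to 8.24 ± 0.632 TPM. In the KEGG pathway of glutathione metabolism 3 of 7 tested genes were higher, 3 lower and 1 did not pass. Its most abundant tested member was Odc1, an enzyme of polyamine synthesis (199.97 ± 14.1 to 476 ± 14.7 TPM), while Rrm2, a ribonucleotide reductase subunit, fell from 82.7 ± 6.97 to 30.5 ± 3.55 TPM.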
